A study of Mus musculus with 6 samples.

Results

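The 10 genes described here encode the calcium channels, exchanger and pumps of the sarcolemma, the surface membrane of heart muscle cells, together with phospholemman, a small regulator that acts on the exchanger. They were taken by symbol from the 54532 mouse genes in the table, through their Ensembl identifiers in the GENCODE M21 annotation. The rule uses no measured value, but the genes were chosen with earlier results of these data known. Cacna1c and Cacna1d encode L-type channel pores, and Cacna1g and Cacna1h encode T-type channel pores. Cacnb2 and Cacna2d1 encode the accessory subunits CaVβ2 and α2δ-1. Slc8a1 encodes the sodium-calcium exchanger NCX1, Atp2b1 and Atp2b4 the plasma membrane calcium pumps PMCA1 and PMCA4, and Fxyd1 phospholemman. All 10 were detected in every sample, and 9 passed the filter for testing, which kept 13794 genes averaging 0.5 FPKM or more over the 6 samples (FPKM, fragments per kilobase of exon in a depth-scaled library). Cacna1d did not pass.

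The RNA came from primary cardiomyocytes of neonatal mice, 1 to 3 days old, whose Rit1 locus was built so that Cre recombinase turns on M90I, a pathogenic variant of the RAS-related GTPase RIT1. Cells were preplated to remove those that attach quickly, seeded at about 1 heart per well, and infected on day 3 with an adenovirus for GFP (AdGFP, 3 samples, genotype labelled Rit1 +/+) or for GFP-Cre (AdCre, 3 samples, labelled Rit1 M90I/+), and RNA was sequenced 6 days later. Strain and sex were not given in the sources used here. Cre and the variant came together, with no culture that received Cre without the inducible allele, so their effects cannot be told apart. The comparison asks which transcripts differ between AdCre and AdGFP cultures.

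In a working heart cell, depolarization opens L-type channels, and the calcium that enters through them triggers release of a larger store from the sarcoplasmic reticulum. Relaxation requires that this calcium be removed again. Most is pumped back into the reticulum by SERCA2a, and the exchanger moves the share that entered out of the cell, in trade for sodium, with a small contribution from the plasma membrane pumps. T-type channels open at more negative potentials, are abundant in the fetal and neonatal heart, and remain in pacemaker cells of the adult. The β subunit brings the pore to the membrane and tunes its gating, and α2δ raises the number of channels at the surface. Phospholemman inhibits both the sodium pump and NCX1, depending on its phosphorylation.

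The FPKM values came from 25.28 to 32.43 megareads per sample, and for exons of 2 kb each FPKM was worth 49.3 to 64.1 reads. Rit1 itself averaged 8.55 ± 0.774 FPKM in AdGFP samples and 9.19 ± 0.351 FPKM in AdCre samples (SD, n = 3), with a log2 fold change of 0.11 with an adjusted p of 0.84 (limma), and an allele cannot be told from its partner in this measure. The labelled cell type was present: all 12 cardiomyocyte markers were measured, and their summed level was between 2820 and 4660 FPKM in AdGFP and between 1810 and 2820 FPKM in AdCre. Fibroblast markers were abundant too, and the 10 of them summed to between 2600 and 4680 FPKM in AdGFP and between 2290 and 3360 FPKM in AdCre. In bulk RNA, fewer cells of a type and less RNA per cell cannot be told apart, and this holds for each of the levels given here.

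Most of the genes were lower in AdCre. Fxyd1 showed the largest difference of the 9 tested, its AdCre mean being 46.1% of the AdGFP mean, and Cacna1g followed at 53.6%. The AdCre means of Slc8a1, Cacnb2, Cacna1c, Cacna2d1 and Cacna1h were between 61.3% and 71.6% of those in AdGFP. The AdCre means of the calcium pumps were at 112% of AdGFP for Atp2b1 and 101% for Atp2b4, and that of the untested Cacna1d was at 131%. The median log2 fold change of the 9 tested genes was -0.62, against 0 over all genes tested, and 7 were lower and 2 higher. None of the 9 passed an adjusted p of 0.05 in limma without regard to replicate number, a test that called 1 gene in the whole table (0.00725% of genes). At an unadjusted p under 0.05, Fxyd1, Slc8a1, Cacnb2, Cacna2d1 and Cacna1g were lower and none was higher, where 5.45% of all genes were lower and 4.71% higher. Same-numbered AdGFP and AdCre samples deviated from their group means together, and with the replicate number as a block 5 of the 9 genes were called lower (Fxyd1, Cacnb2, Slc8a1, Cacna1c and Cacna2d1) and 0 higher. The same fit called 3.51% of all genes lower and 2.64% higher. These 5 calls depend on the pairing and on pair 3: with that pair left out 0 of the 9 genes were called, and with pair 2 left out only Fxyd1 and Slc8a1 were. Without pair 3 the log2 fold changes of the 5 ran from -1.13 to -0.47, and that fit called 1 gene in the whole table, against 848 with all pairs. With no filter on low values, or with eBayes without a trend, the blocked fit also called 0 of the 9 genes. After rescaling to TPM it called Fxyd1, Slc8a1 and Cacnb2 but not Cacna1c (adjusted p = 0.0639) or Cacna2d1 (0.0543).

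**Figure D1:**
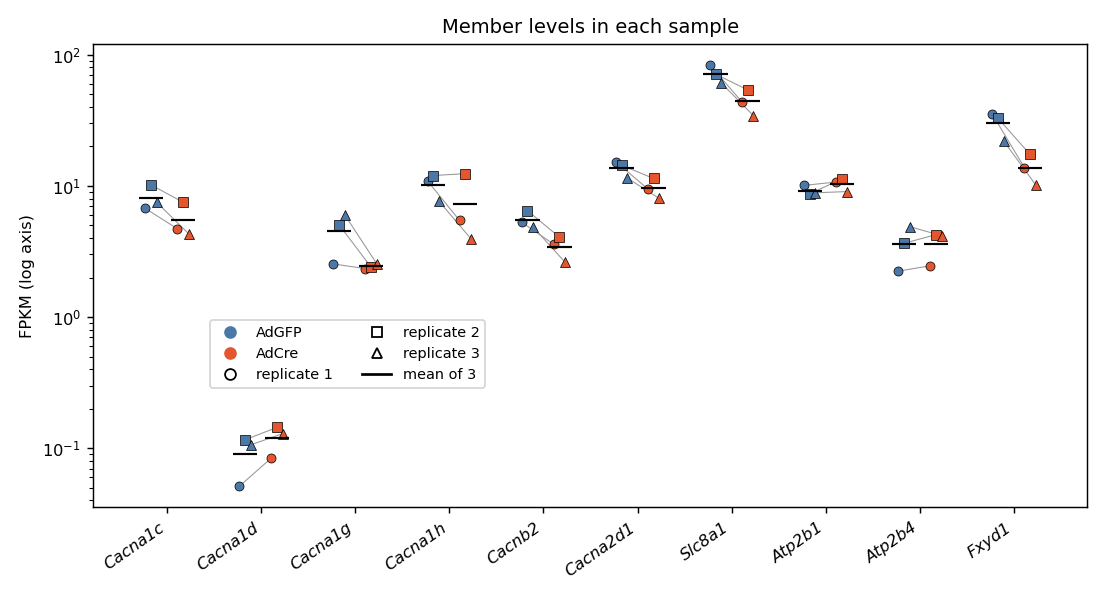
FPKM of each of the 10 genes on a log axis, with blue symbols for AdGFP, red for AdCre, a symbol shape for each replicate number, thin lines between same-numbered samples and a black bar at the mean of 3. The AdCre samples of Fxyd1, Slc8a1, Cacnb2 and Cacna2d1 all sit below the AdGFP samples, while those of Atp2b1, Atp2b4 and Cacna1h overlap them.

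Cacna1c encodes CaV1.2, the main L-type pore of ventricular muscle. It was measured at 6.74, 10.2 and 7.52 FPKM in AdGFP 1 to 3 and at 4.72, 7.52 and 4.33 FPKM in AdCre 1 to 3. Every AdCre sample was below its same-numbered AdGFP sample, but the groups overlapped, because AdCre 2 was as high as AdGFP 3. The means were 8.15 ± 1.81 and 5.52 ± 1.74 FPKM (SD, n = 3), and the log2 fold change was -0.57 (SE 0.25, 95% interval -1.16 to 0.02, adjusted p = 0.505 by limma). With the replicate block the SE became 0.10 and the adjusted p 0.0396, since the pair differences of -0.51, -0.43 and -0.78 lay much closer together than the samples of a group. The gene lies on the minus strand of chromosome 6, at chr6:118587240-119196418 in GRCm38.

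Cacna1d encodes CaV1.3, an L-type pore that opens at lower voltages and is known from pacemaker and atrial cells. It was the lowest of the 10 by far, with 0.0513, 0.116 and 0.106 FPKM in AdGFP 1 to 3 and 0.0841, 0.144 and 0.129 FPKM in AdCre 1 to 3. Those values rest on 86 reads over the 3 AdGFP samples (exact Poisson 95% interval 68.8 to 106) and 126 reads over the 3 AdCre samples (105 to 150), intervals that cover counting error only. Each AdCre sample was above its same-numbered AdGFP sample, and the groups overlapped. No difference was detected: with no filter on low values the log2 fold change was 0.20, with an adjusted p of 0.848 in limma and of 0.742 with the replicate block. Of the exon bases of Cacna1d, 4.7% also lie in exons of Chdh on the other strand, and the use of strand in counting was not given in the sources used here.

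The ratio of both L-type pores was compared within samples, where library scaling has no part. Cacna1d per Cacna1c was 0.00761, 0.0113 and 0.0141 in AdGFP 1 to 3 and 0.0178, 0.0192 and 0.0297 in AdCre 1 to 3. The groups did not overlap, and the mean log2 ratio was higher by 1.02 in AdCre, although Cacna1c remained the far more abundant pore in all 6 samples. A two-sided exact permutation test gave p = 0.1, below which 3 against 3 cannot go, and 0.4 after adjustment over the 4 ratios tested. With log2(FPKM + 1), a pseudocount well above the level of Cacna1d, the difference was 0.54 with an exact permutation p of 0.2.

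Of the T-type pores, Cacna1g (CaV3.1) was measured at 2.54, 5.05 and 6.01 FPKM in AdGFP 1 to 3 and at 2.34, 2.40 and 2.55 FPKM in AdCre 1 to 3. The AdCre samples lay within a narrow band, and AdGFP 1 lay in that band as well, whereas AdGFP 2 and 3 stood well above it. The means were 4.53 ± 1.79 and 2.43 ± 0.107 FPKM (SD, n = 3), with a log2 fold change of -0.79 (SE 0.30, 95% interval -1.51 to -0.06, adjusted p = 0.452 by limma, 0.102 with the block). The pair differences were -0.11, -1.04 and -1.21, so pair 1 showed almost no difference. Without pair 1 the blocked log2 fold change was -1.12, with an adjusted p of 0.0102 in limma. It was -0.66 without pair 2 (adjusted p = 0.305) and -0.58 without pair 3 (0.324).

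Cacna1h (CaV3.2) was the more abundant T-type pore in every sample, with 10.9, 12 and 7.65 FPKM in AdGFP 1 to 3 and 5.45, 12.4 and 3.96 FPKM in AdCre 1 to 3. AdCre 1 and 3 were below all AdGFP samples, and AdCre 2 was the highest of the 6. The log2 fold change was -0.62 (SE 0.41, 95% interval -1.59 to 0.34, adjusted p = 0.684 by limma, 0.148 with the block), and its size rested on single samples: it was -1.09 without AdCre 2 and -0.28 without AdCre 3. The pair differences were -0.98, 0.05 and -0.93, so the pair that showed no difference was another one than for Cacna1g. The ratio of Cacna1g to Cacna1h was scattered, from 0.234 to 0.786 in AdGFP and from 0.194 to 0.644 in AdCre, with a log2 difference of -0.18 and an exact permutation p of 0.8. Hcn4, the pacemaker channel gene that marks sinoatrial node cells, was at 2.86, 4.64 and 4.94 FPKM in AdGFP 1 to 3 and at 2.97, 1.97 and 2.57 FPKM in AdCre 1 to 3. The other genes of the sinoatrial list differed among themselves: in AdGFP 1 to 3, Isl1 was at 0.0102, 0.169 and 0.287 FPKM and Tbx3 at 1.36, 1.30 and 1.02 FPKM. The log2 fold changes were -0.69 for Hcn4, -0.45 for Tbx18, -0.04 for Shox2 and 0.05 for Tbx3. The part of such cells in the T-type values was not tested.

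Both accessory subunits of the L-type channel separated the groups completely. Cacnb2, the β subunit of the cardiac channel, was at 5.28, 6.48 and 4.87 FPKM in AdGFP 1 to 3 and at 3.59, 4.07 and 2.62 FPKM in AdCre 1 to 3. Its highest AdCre sample was thus below its lowest AdGFP sample. The means were 5.55 ± 0.837 and 3.42 ± 0.74 FPKM (SD, n = 3), and the log2 fold change was -0.69 (SE 0.20, 95% interval -1.16 to -0.22, adjusted p = 0.329 by limma, 0.0293 with the block). Exons of non-coding genes on the other strand overlap 7.3% of the Cacnb2 exon bases.

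Cacna2d1 was at 15.3, 14.4 and 11.5 FPKM in AdGFP 1 to 3 and at 9.47, 11.4 and 8.03 FPKM in AdCre 1 to 3. The groups did not overlap, but AdCre 2 nearly reached AdGFP 3. The means were 13.7 ± 2.00 and 9.62 ± 1.67 FPKM (SD, n = 3), with a log2 fold change of -0.51 (SE 0.17, 95% interval -0.93 to -0.10, adjusted p = 0.39 by limma, 0.0419 with the block). The pore Cacna1c and its partners Cacnb2 and Cacna2d1 were therefore all lower in each of the 3 pairs, with log2 differences from -0.87 to -0.34.

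Slc8a1, the exchanger, was the most abundant of the 10 genes in both groups. It was at 83.5, 71.1 and 61.0 FPKM in AdGFP 1 to 3 and at 43.7, 54.0 and 34.4 FPKM in AdCre 1 to 3, so all AdCre samples were below all AdGFP samples. The means were 71.9 ± 11.3 and 44.0 ± 9.79 FPKM (SD, n = 3), and the log2 fold change was -0.72 (SE 0.20, 95% interval -1.19 to -0.25, adjusted p = 0.321 by limma, 0.0316 with the block). This fold change was close to that of Cacna1c. The ratio of Slc8a1 to Cacna1c was 12.4, 6.98 and 8.10 in AdGFP 1 to 3 and 9.27, 7.18 and 7.94 in AdCre 1 to 3, a log2 difference of -0.14 with an exact permutation p of 0.8. The gene lies on the minus strand at chr17:81373105-81738377 in GRCm38.

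No decrease was estimated for the plasma membrane calcium pumps, and their difference from the exchanger was not tested. Atp2b1, the pump found in most cell types, was at 10.1, 8.70 and 8.86 FPKM in AdGFP 1 to 3 and at 10.7, 11.3 and 9.06 FPKM in AdCre 1 to 3. It was slightly higher in AdCre in each pair, by 0.08, 0.37 and 0.03 on the log2 scale, and the groups overlapped. The log2 fold change was 0.16 with a 95% interval of -0.15 to 0.48 (adjusted p = 0.766 by limma, 0.373 with the block), an interval that does not reach the decrease estimated for any of the 7 lower genes. Atp2b4 was at 2.24, 3.65 and 4.90 FPKM in AdGFP 1 to 3 and at 2.46, 4.25 and 4.17 FPKM in AdCre 1 to 3. Its replicates differed by more than its groups, with replicate 1 lowest in both. The log2 fold change of 0.04 had a wide 95% interval of -0.74 to 0.81 (adjusted p = 0.989 by limma, 0.891 with the block). That interval includes the estimate for Slc8a1, -0.72. The sign of the small Atp2b4 value turned when AdGFP 1, AdCre 2 or AdCre 3 was left out.

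Fxyd1 was the most reduced of the tested genes and the second most abundant. It was at 35.2, 32.8 and 22.0 FPKM in AdGFP 1 to 3 and at 13.8, 17.4 and 10.2 FPKM in AdCre 1 to 3, with no overlap. The means were 30 ± 7.06 and 13.8 ± 3.60 FPKM (SD, n = 3), and the log2 fold change was -1.12 (SE 0.25, 95% interval -1.71 to -0.52, adjusted p = 0.252 by limma). With the block the adjusted p was 0.0119, the pair differences being -1.34, -0.91 and -1.10, and by blocked p the gene ranked 48 among the 13794 tested. It lies on the minus strand at chr7:31051678-31057199 in GRCm38.

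**Figure D2:**
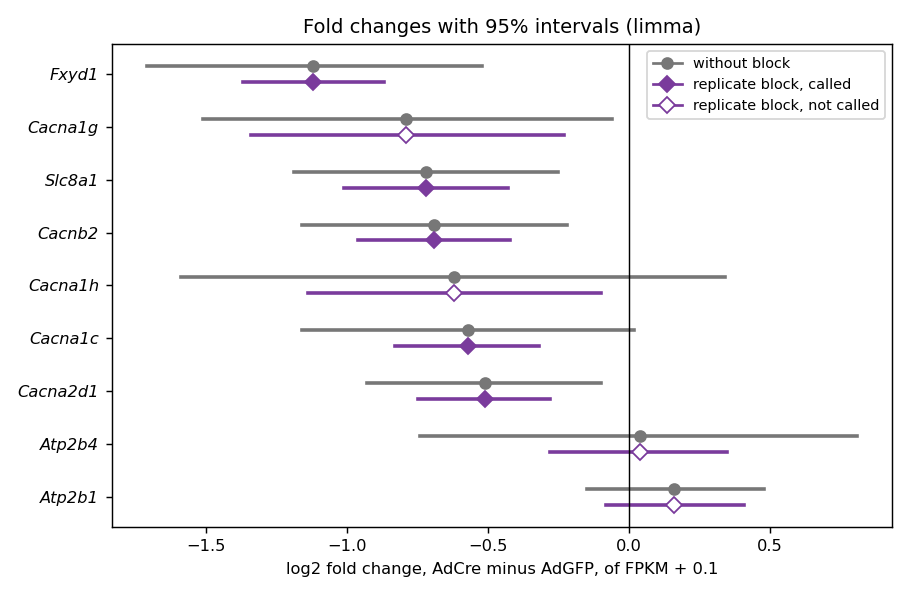
Log2 fold change (AdCre minus AdGFP, of FPKM + 0.1) of the 9 tested genes with 95% intervals from limma, in grey without the replicate block and in purple with it, where filled diamonds mark an adjusted p under 0.05. Fxyd1 lies farthest to the left at -1.12, and the intervals of Atp2b4 and Atp2b1 span 0 in both fits.

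Over all genes tested, the AdCre samples lay entirely below the AdGFP samples for 8.02% and entirely above for 7.36%. Among the 9 tested genes of the sarcolemma, 4 lay entirely below (Cacnb2, Cacna2d1, Slc8a1 and Fxyd1) and 0 entirely above. In terms of pairs, 6 of the 9 were lower in all 3, where 24.5% of all genes were, and Atp2b1 alone was higher in all 3, where 23.9% of all genes were. The order of levels also shifted. In AdGFP it ran from Slc8a1 (71.9 FPKM) through Fxyd1 (30), Cacna2d1 (13.7), Cacna1h (10.2), Atp2b1 (9.22), Cacna1c (8.15), Cacnb2 (5.55), Cacna1g (4.53) and Atp2b4 (3.60) to Cacna1d (0.091). Neighbours from Cacna2d1 to Cacna1c, and from Cacnb2 to Atp2b4, overlapped over samples, while the other steps did not. In AdCre, Atp2b1 (10.4 FPKM) had moved up to the third place, though its samples overlapped those of both Fxyd1 (13.8) and Cacna2d1 (9.62), and Cacna1g (2.43) lay below both Atp2b4 (3.62) and Cacnb2 (3.42) without overlap with Cacnb2.

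Cardiomyocyte markers were lower in AdCre as well, and their level is given here by sample. The mean log2 level of the 12 markers was 7.69, 7.27 and 6.89 in AdGFP 1 to 3 and 6.88, 6.90 and 6.22 in AdCre 1 to 3. All 12 markers were lower in AdCre, 6 of them called with the block and 0 without it, with a median log2 fold change of -0.61. AdGFP 3, AdCre 1 and AdCre 2 had nearly the same marker level, and at that level Fxyd1 stood at 22.0 FPKM in AdGFP 3 against 13.8 and 17.4 FPKM in the AdCre samples. Slc8a1 stood at 61.0 against 43.7 and 54.0 FPKM, Cacnb2 at 4.87 against 3.59 and 4.07 FPKM, Cacna2d1 at 11.5 against 9.47 and 11.4 FPKM, and Cacna1g at 6.01 against 2.34 and 2.40 FPKM. Cacna1c stood at 7.52 against 4.72 and 7.52 FPKM, Cacna1h at 7.65 against 5.45 and 12.4 FPKM, Atp2b4 at 4.90 against 2.46 and 4.25 FPKM, and Atp2b1 at 8.86 against 10.7 and 11.3 FPKM. These values set 1 AdGFP sample beside AdCre samples of other replicate numbers and carry no test. Within AdGFP, Cacna1g did not follow the markers, being lowest in AdGFP 1, where the markers were highest.

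**Figure D3:**
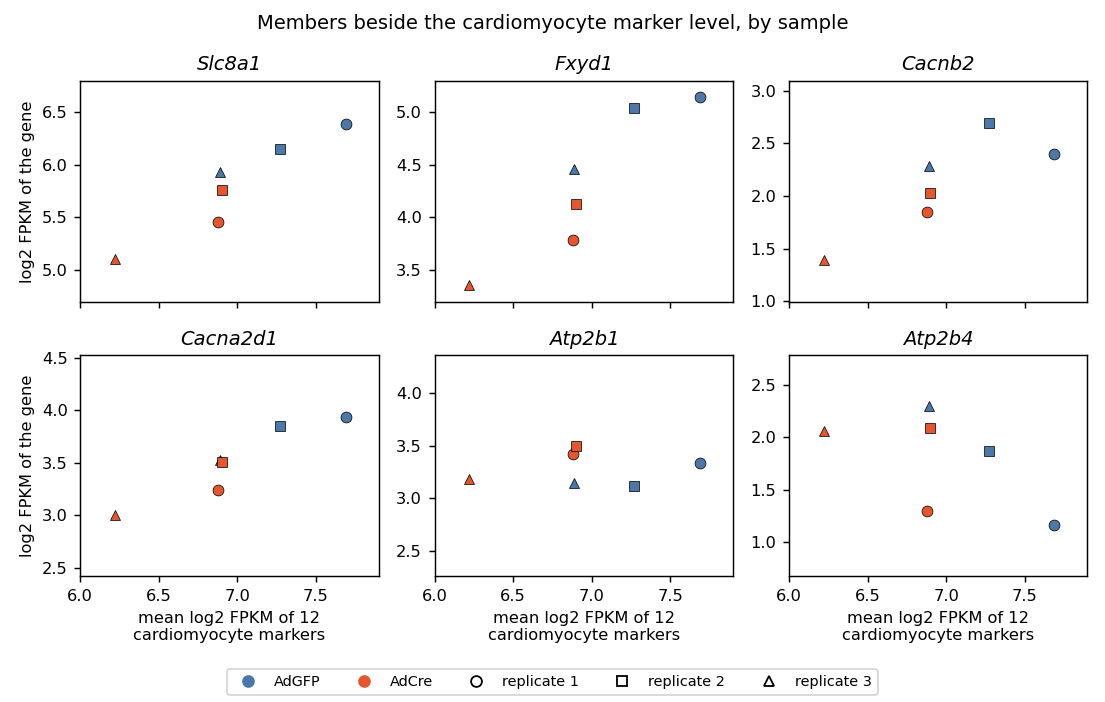
Log2 FPKM of 6 genes (vertical axes, each spanning the same range of log2 units) against the mean log2 FPKM of 12 cardiomyocyte markers in the same sample (horizontal axis), blue for AdGFP and red for AdCre, with a symbol shape for each replicate number. Slc8a1, Fxyd1, Cacnb2 and Cacna2d1 are lowest in AdCre 3, which has the lowest marker level at 6.22, while Atp2b1 stays between 8.70 and 11.3 FPKM over all marker levels.

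When each sample was centred on these markers, which moved the median of all genes to 0.61, the log2 fold changes relative to the markers lay between -0.17 and 0.10 for Cacna1c, Cacna1g, Cacna1h, Cacnb2, Cacna2d1 and Slc8a1. Fxyd1 was at -0.50 relative to the mean of the markers, with an adjusted p of 0.267 in limma and 0.0195 with the block, a fit that called 1.2% of all genes lower. The markers themselves spread, from -0.16 (Tnnc1) to -1.12 (Myl2) before centring, so that Fxyd1 at -1.12 lay at the end of their range. Atp2b1 was at 0.78 and Atp2b4 at 0.65 on that scale, close to the median of all genes, and the blocked fit called both higher, along with 69.8% of all genes.

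Markers of other cells moved as well. The 8 endothelial markers were all higher in AdCre (median log2 fold change 0.38, 3 called with the block), and their sum ranged from 87.7 to 138 FPKM in AdGFP and from 128 to 192 FPKM in AdCre. The 8 macrophage markers were also all higher (median 0.51, 2 called with the block, sums of 50 to 272 and 88.7 to 339 FPKM). Of the 10 fibroblast markers 8 were lower (median -0.31, 3 called lower with the block), and the 9 smooth muscle and pericyte markers had a median of 0.12 and 0 calls. Among 7 epicardial and mesothelial markers (median -0.38, sums of 161 to 334 and 201 to 300 FPKM), 1 was called higher and 1 lower with the block. The sinoatrial list, 4 of its 5 genes tested, summed to between 24.3 and 26.6 FPKM in AdGFP and between 18.4 and 18.6 FPKM in AdCre (median -0.25, 1 called lower with the block). For Schwann cells and neurons 3 of 7 genes were tested (median 0.24, 0 calls), and of 6 red blood cell genes none reached the level for testing and Hba-a2 and Hbb-bt were at 0 in all samples. The part of these cells in the values of Atp2b1 and Atp2b4, which are made in many cell types, was not tested.

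Around the 10 genes, the lists of other calcium genes had different medians. The sarcoplasmic reticulum list resembled the sarcolemmal genes in its median: of its 20 genes 19 were tested, 16 were lower and 3 higher, and the median log2 fold change was -0.56. With the block 10 were called lower and 1 higher, where 3.51% of all genes were called lower and 2.64% higher. Pln (phospholamban, the inhibitor of SERCA2a) had a log2 fold change of -1.31, Sln (sarcolipin, a related inhibitor) of -1.20, Hrc (a calcium-binding protein of the reticulum lumen) of -0.92, Ryr2 (the release channel) of -0.97 and Srl (sarcalumenin) of -0.81, with blocked adjusted p-values between 0.0101 and 0.0274 in limma. The gene called higher was Itpr3, an inositol trisphosphate receptor, which averaged 4.72 ± 0.393 FPKM over AdGFP and 8.19 ± 1.41 FPKM over AdCre (SD, n = 3), with a log2 fold change of 0.77 and a blocked adjusted p of 0.0326. It is named here after its values were seen. Without the block 0 genes of this or any other calcium list were called, and the difference between lists was not tested.

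Entry routes outside the voltage-gated channels did not move as a group, and single genes were called higher. Of 14 store-operated and TRP channel genes 12 were tested, 7 being higher and 5 lower (median 0.08). The block called 2 higher and 0 lower, and over all genes it called 2.64% higher and 3.51% lower. Trpc6, a receptor-operated cation channel, averaged 1.51 ± 0.244 FPKM over AdGFP and 2.81 ± 0.188 FPKM over AdCre (log2 fold change 0.86, blocked adjusted p = 0.0289 by limma). Orai2, a store-operated channel subunit, was at 2.17 ± 0.307 and 3.62 ± 0.684 FPKM (0.71, 0.0492). Among 17 tested of 19 genes for regulators and anchors of the L-type channel (median 0.13), 1 was called higher with the block. This was Gem, a small GTPase that binds β subunits and inhibits the channel, at 2.35, 1.63 and 1.04 FPKM in AdGFP 1 to 3 and 4.07, 3.40 and 3.57 FPKM in AdCre 1 to 3, with no overlap (log2 fold change 1.16, adjusted p = 0.281 without the block and 0.0349 with it). Gem was thus higher and Cacnb2 lower in AdCre, and a link between them was not tested. Rrad, of the same list and named here after its values were seen, was more abundant and went the other way. It averaged 47 ± 18.6 FPKM over AdGFP and 34.1 ± 13.7 FPKM over AdCre (log2 fold change -0.45, adjusted p = 0.774 by limma, 0.13 with the block).

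The nearest relatives of the 10 genes did not move as a group. Of 17 other subunits of voltage-gated calcium channels only 6 were tested, with a median of 0.02 and 0 calls. Cacnb3, another β subunit, averaged 18.8 ± 1.88 FPKM over AdGFP and 17.4 ± 1.29 FPKM over AdCre (log2 fold change -0.11, adjusted p = 0.838 by limma), in contrast to the values of Cacnb2, and Cacna1a, a P/Q-type pore, was at 1.30 ± 0.108 and 1.40 ± 0.174 FPKM. Of 11 other exchangers and pump genes 5 were tested, with a median of -0.28 and 0 calls. Slc24a2, a potassium-dependent sodium-calcium exchanger, was low but did not overlap, with 0.700 ± 0.0743 FPKM over AdGFP and 0.319 ± 0.0522 FPKM over AdCre (-0.94, adjusted p = 0.416, 0.14 with the block). Bsg, which encodes basigin, a partner of the plasma membrane pumps, was at 1410 ± 258 and 989 ± 298 FPKM (-0.55, adjusted p = 0.597).

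The sodium pump sets the gradient that drives the exchanger, and phospholemman inhibits it. Of 13 genes of its family 8 were tested, with a median of -0.10. Fxyd5, a relative of phospholemman known from epithelia, was called higher with the block, and its groups overlapped. It averaged 12.1 ± 2.24 FPKM over AdGFP and 15.9 ± 2.56 FPKM over AdCre (log2 fold change 0.40, adjusted p = 0.519 by limma, 0.0442 with the block). In the FXYD family, the estimates for phospholemman and Fxyd5 therefore differed in direction, a contrast that was not tested.

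**Figure D4:**
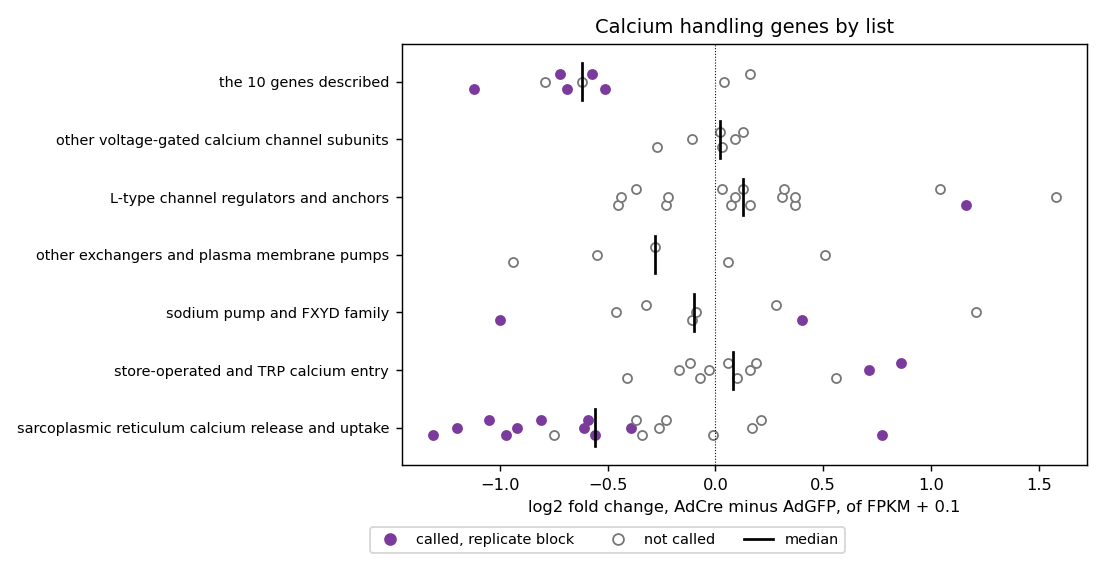
Log2 fold change (AdCre minus AdGFP) of each tested gene, 1 point per gene, for the 10 genes described and 6 lists of other calcium handling genes, with filled points for an adjusted p under 0.05 with the replicate block and a black bar at the median of each list. The medians of the sarcolemmal and the sarcoplasmic reticulum genes lie at -0.62 and -0.56, and the other lists lie between -0.28 and 0.13.

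Reference sequence before a RefSeq start site is shown for the exchanger and phospholemman, which had the lowest fold changes among the genes whose groups did not overlap. It is also shown for Atp2b4, for which no decrease was estimated. The starts of Fxyd1 and Atp2b4 lie inside the GENCODE span of the gene, which has other starts farther upstream. RefSeq (GRCm38.p6) gave start sites for 8 of the 10 genes, 13 windows in all, and the 250 bases before each start were searched on both strands for 6 motifs. Capitals mark matches to the GATA motif (AGATAA or AGATAG) and the M-CAT motif (CATTCC), both known from heart muscle promoters, and each sequence reads 5′ to 3′ on the strand of its gene, the minus strand for all 3. The windows are chr17:81738388-81738637 for Slc8a1, chr7:31054854-31055103 for Fxyd1 and chr1:133753748-133753997 for Atp2b4.
Slc8a1: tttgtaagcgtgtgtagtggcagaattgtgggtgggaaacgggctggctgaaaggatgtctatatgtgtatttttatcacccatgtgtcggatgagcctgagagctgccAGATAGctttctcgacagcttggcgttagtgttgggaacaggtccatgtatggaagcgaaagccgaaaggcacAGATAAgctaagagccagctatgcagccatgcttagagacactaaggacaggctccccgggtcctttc
Fxyd1: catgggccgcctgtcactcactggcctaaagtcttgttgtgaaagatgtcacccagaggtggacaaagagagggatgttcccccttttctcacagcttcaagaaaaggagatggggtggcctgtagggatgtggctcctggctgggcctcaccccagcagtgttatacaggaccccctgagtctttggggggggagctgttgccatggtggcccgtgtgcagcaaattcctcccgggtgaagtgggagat
Atp2b4: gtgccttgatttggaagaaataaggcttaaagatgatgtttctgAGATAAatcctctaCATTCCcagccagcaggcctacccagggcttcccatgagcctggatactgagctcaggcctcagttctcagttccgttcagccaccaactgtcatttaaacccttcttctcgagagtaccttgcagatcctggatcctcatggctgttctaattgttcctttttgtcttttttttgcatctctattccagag
The Slc8a1 window holds GATA motifs that begin 141 and 68 bases before the start, and Atp2b4 holds a GATA motif at 206 bases and an M-CAT motif at 192 bases. Of the 13 windows 3 had a GATA motif (1 each of Cacna1c, Slc8a1 and Atp2b4), as did 16.5% of 32851 promoters of the same length. An M-CAT motif was in 1 window (12.6% of all promoters), and TATAAA was in 1 window of Cacna1d (12.4%). The AP-1 motif TGANTCA (6.75% of promoters), the SRF box (1.47%) and the MEF2 motif (2.92%) had 0 matches in the 13 windows, which says only that these letters are not there. Some matches to TATAAA in the Cacna1d window overlap each other. The Fxyd1 window held none of the 6 motifs. Base composition varied widely, with 50.4% G and C before Slc8a1, 57.2% before Fxyd1 and 45.6% before Atp2b4, against 82.4% before Cacna2d1.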

How the data were processed

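The labels place 3 samples in AdGFP and 3 in AdCre. The deposited table gives FPKM per gene and sample, made by the authors without pooling replicates. Libraries were made from poly-T selected RNA. The submitters' processing notes name fastp, STAR 2.5, HTSeq 0.6.1 and mm10. The annotation, the use of strand and the FPKM formula were not given in the sources used here. Symbols, exon lengths and coordinates came from GENCODE M21 (GRCm38), in which 54495 of 54532 identifiers were found and 37 were not. The sarcoplasmic reticulum gene Strit1 was not matched.

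FPKM times exon length gave whole reads (within 0.02) in all 6 samples for 96.8% of 28433 matched genes above 0. Slc8a1 was not among them, so its recovered reads are approximate. The denominators behind the FPKM values were 0.9307, 0.9746 and 0.9751 of the recovered sums in AdGFP 1 to 3. They were 0.9877, 0.9938 and 1.0255 in AdCre 1 to 3, without overlap, and a larger denominator gives lower FPKM. The median log2 fold change of all genes was 0 as tested, 0.09 after rescaling to TPM and 0.06 with voom. What made the denominators differ was not tested.

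Values were tested as log2(FPKM + 0.1) in limma 3.58.1 (R 4.3.3) with lmFit and eBayes with an intensity trend, two-sided, and Benjamini-Hochberg adjustment over 13794 genes averaging 0.5 FPKM or more. Fold changes are on that scale, which understates those of low genes, and a gene is called at an adjusted p under 0.05. The test was also run on simulated data, whose noise was not set to match that of these samples. That run checks the fold change estimate, and the calls given here do not rest on it. Level ratios were tested by exact permutation over samples.

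Both groups have biological replicates 1 to 3 per the labels, which do not say what the number stands for or whether each was its own culture, so p-values measure the spread between these samples. Across genes, how samples of number 1, 2 and 3 departed from their group's mean correlated between AdGFP and AdCre at 0.568, 0.268 and 0.506, whereas unlike numbers gave -0.497 to 0.036. With each value above 0.1, the samples were treated as pairs, with no other evidence for it, and the blocked fit is given where it changes a call.

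All 10 genes are described. Of each calcium list at most 5 called genes with the smallest p were named, or the 2 with the smallest p where none was called (other exceptions are stated). A gene that this rule names is not reported here. The genes, lists and markers were chosen with earlier results of these data known. Alternatives were other pseudocounts, filters and scalings, eBayes without a trend, voom on the recovered reads of 13120 genes (Slc8a1 rounded), the replicate block with each of these, and leaving out each sample or pair.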

Additional observations from a re-analysis of the deposited data

How the results depend on the processing

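Without the replicate block, 0 of the 9 tested genes were called under any of the other pseudocounts, filters and scalings, under voom, or with any of the 6 samples left out. With the replicate block 5 were called, and 5 also with pseudocounts of 1 and 0.01, a mean of at least 1 FPKM, median centring or quantile normalization. Without pair 1 the count was 5 as well, with Cacna1g in the place of Cacna2d1. The block gave 6 calls with voom on the recovered reads (Cacna1g added), 3 with rescaling to TPM (Fxyd1, Slc8a1 and Cacnb2), 3 with centring on the cardiomyocyte markers (Fxyd1, Atp2b1 and Atp2b4), 2 without pair 2, and 0 with no filter, without a trend or without pair 3. The number of calcium list genes called rose from 0 to 16 with the block. The cause of these changes was not tested. Over all genes, the block without pair 2 called 149 and without pair 3 called 1, against 848 with all pairs and 1651 with voom. With TPM, 538 of its 875 calls were higher, against 364 of 848.

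Directions were kept for Cacna1g, Cacna1h, Cacnb2, Slc8a1, Fxyd1 and Atp2b1 in all 30 alternatives, except that Cacna1h was at 0.00 after marker centring. After that centring Cacna1c was at 0.04 and Cacna2d1 at 0.10, with or without the block. Atp2b4 was at -0.01 with the block without pair 1 and at -0.05 without pair 2, and between -0.26 and 0.29 with single samples left out. With single samples left out, the log2 difference in the ratio of Cacna1g to Cacna1h ran from -0.61 to 0.30, of Atp2b4 to Atp2b1 from -0.50 to 0.16, and of Slc8a1 to Cacna1c from -0.31 to 0.10. That of Cacna1d to Cacna1c ran from 0.78 to 1.22, and was 0.54 with a pseudocount of 1.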
